A study of Mus musculus with 10 samples.

Results

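Immediate-early response genes are the genes that cells switch on within minutes of a growth, stress or inflammatory signal, without needing new protein first. Most are short. Many hold a paused RNA polymerase near the start that is released when the signal arrives, and topoisomerase II, the enzyme that passes DNA strands through a transient break, is known to act at several of them. Their products are mainly transcription factors (AP-1, EGR, NR4A and KLF proteins), phosphatases and RNA-binding proteins that end the signal, and inhibitors of NF-kB, the transcription factor of inflammatory signalling.

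The set held 40 listed genes, of 21887 protein-coding genes on chromosomes 1 to 19, X and Y, and was followed in 10 libraries of translocation junctions. A junction was given to a gene when it lay in the RefSeq gene body or within 5 kb of either end (mouse build mm10). The libraries came from Abelson-transformed pre-B cells of strain C57BL/6 that lack LIG4 (LIG4-/-), the ligase of classical end joining, so every group shared that deletion. All were arrested in G1 with imatinib and made to express a zinc finger nuclease (ZFN) with doxycycline. The nuclease cut chromosome 6, and DNA joined to that bait break was sequenced by high-throughput genome-wide translocation sequencing (HTGTS). The untreated group (n = 2) had no further treatment, and the etoposide group (n = 2) had 50 uM etoposide for 2.5 h followed by 12 h of recovery (etoposide, n = 2).

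Etoposide traps topoisomerase II on the DNA ends it has cut. The other 6 groups had 1 library each. IFN was given alone or together with etoposide. DRB, which blocks transcription elongation, was given alone, or from 2 h before etoposide or AsiSI induction and kept on. AsiSI, a restriction enzyme activated with tamoxifen, was induced with or without DRB. The labels spell out neither IFN nor its dose, and do not say whether the cells are 1 clone. Genomic DNA carries no expression, so the labelled cell type was not checked against expressed markers, and whether a listed gene was being transcribed was not measured here.

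Prey junctions are those more than 1 Mb from the bait break. They numbered from 463 in DRB with etoposide to 10521 in etoposide replicate 1, and those off chromosome 6 from 108 (DRB) to 6443 (etoposide replicate 1). The untreated libraries had 618 and 247 prey off chromosome 6, against 6443 and 2049 in the etoposide libraries. Read names placed replicate 1 of untreated and etoposide in the same sequencing run, whose prey alignments were longer (medians of 253 and 272 bp) than in the other runs (60 to 79 bp). Untreated replicate 2 and etoposide replicate 2 were in different runs, so run and treatment cannot be told apart in replicate 2. Intervals below are exact and cover counting error only.

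Over the 10 libraries, 51 junctions fell in the response genes, 34 in gene bodies and 17 in the flanks. Of these, 45 were in the 4 libraries with etoposide and 6 in the 6 libraries without it. At least 1 junction was seen in 22 genes, while 18 had 0 in every library. The share of all genes with a junction over the 10 libraries was not computed, so nothing is read from this count. The same holds for the counts within gene families below. Shares for the etoposide libraries are given with the whole set. The libraries without etoposide had few prey, so the counts have to be read against the prey of each library, as is done for the whole set further on. None of the 51 junctions lay inside another protein-coding gene, and 7 lay inside a non-coding gene that overlaps the window.

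**Figure D1:**
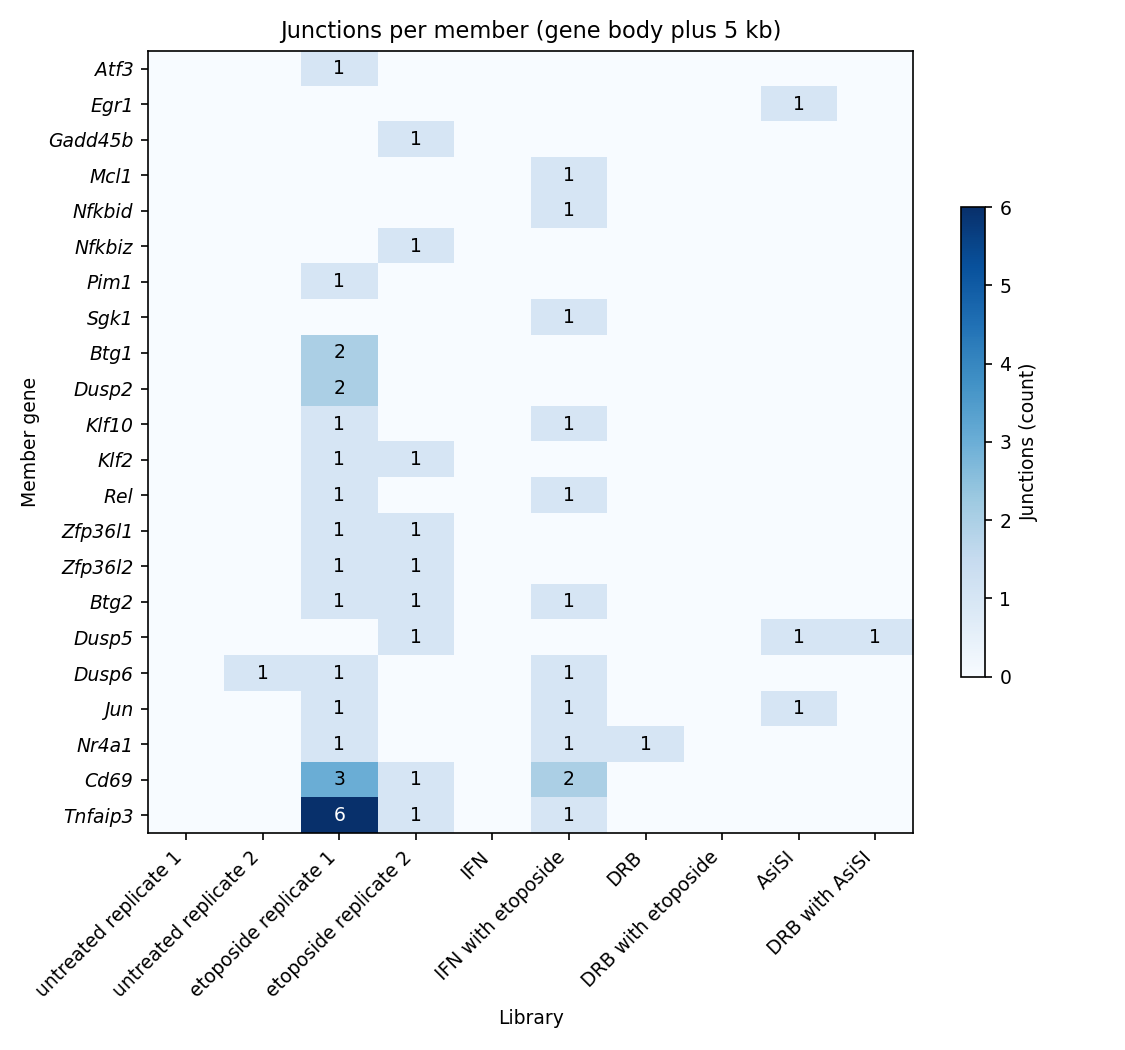
Junctions in each response gene with at least 1 (rows) by library (columns), coloured and numbered by count. Blank cells are 0, and Tnfaip3 and Cd69 hold the most junctions, mainly in the etoposide libraries without DRB.

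Tnfaip3 held the most junctions of the set. It encodes A20, a ubiquitin-editing enzyme that shuts off NF-kB signalling, and lies at chr10:19000910-19015410. It had 6 junctions in etoposide replicate 1, 1 in etoposide replicate 2 and 1 in IFN with etoposide, and 0 in the other 7 libraries. The 3 libraries with junctions are the etoposide libraries without DRB. The junctions were spread over the gene, from 1093 bp after its outermost start to 4488 bp past its end. The junction 198 bp after another annotated start lay 3645 bp into the gene. Among 4357 protein-coding genes of like length (body within 1.5 times that of Tnfaip3, chromosome 6 left out), 0 had as many as the 7 junctions of the etoposide libraries. The highest of those genes had 6 and their mean was 0.235. The first place rests on a pair of reads 3 bp apart, shown next: with junctions within 10 bp counted once (chosen after the data were seen), Tnfaip3 had 6 and 2 of the 4357 genes had as many. Since Tnfaip3 stands out within a set that was chosen with results of these libraries known, this rank is a description.

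The reads across 4 of these junctions show how the bait was joined along the gene. Lower case is the 25 bases of bait from chromosome 6 that precede the prey alignment, 5′ to 3′ along the read (mm10). Capitals are the first bases of the Tnfaip3 prey. Bases shared by bait and prey are printed in capitals, so the bait match can run on into them. The first 2 junctions are 3 bp apart, and so are their bait ends (chr6:41554902 and 41554905). Compared base by base without a shift, the reads differ at 2 of 310 bases, so the 3 bp lie in where each alignment was split. Whether they are copies of 1 molecule was not tested.
Tnfaip3, etoposide replicate 1, chr10:18996422-18996461, plus strand: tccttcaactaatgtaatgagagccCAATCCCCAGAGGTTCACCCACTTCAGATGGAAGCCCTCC
Tnfaip3, etoposide replicate 1, chr10:18996425-18996464, plus strand: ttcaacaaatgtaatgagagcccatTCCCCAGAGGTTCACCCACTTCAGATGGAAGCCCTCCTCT
Tnfaip3, etoposide replicate 1, chr10:19011765-19011804, plus strand: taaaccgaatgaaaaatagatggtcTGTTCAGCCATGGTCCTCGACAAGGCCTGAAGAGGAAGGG
Tnfaip3, etoposide replicate 2, chr10:19003543-19003582, minus strand: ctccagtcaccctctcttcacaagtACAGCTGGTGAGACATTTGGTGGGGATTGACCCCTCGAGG

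Of the other 4 NF-kB genes, 3 had junctions, all in libraries with etoposide. Rel, which encodes the c-Rel subunit (chr11:23736847-23770969), had 1 junction in etoposide replicate 1 and 1 in IFN with etoposide, and 0 elsewhere. Both lay deep in the gene, 16068 and 24748 bp from the start. Nfkbiz, a nuclear co-regulator of NF-kB, had 1 junction in etoposide replicate 2, in the gene body 6845 bp from its nearer end. Nfkbid, another nuclear IkB protein, had 1 in IFN with etoposide, 329 bp after an annotated start and 1004 bp into the gene body. Nfkbia, which encodes the classical cytoplasmic inhibitor IkB-alpha, had 0 in all 10 libraries.

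Cd69, an early activation antigen of lymphocytes, came second with 6 junctions. It lies at chr6:129267324-129275375, 87.7 Mb from the bait break on the same chromosome, where prey are denser, so it was left out of the shares and densities below. It had 3 junctions in etoposide replicate 1, 1 in etoposide replicate 2 and 2 in IFN with etoposide, with 0 in the other 7 libraries. All but 1, which was 4449 bp outside the gene, lay in the gene body. It was set against 75 genes of like length on chromosome 6 at least 50 Mb from the bait. These had a mean of 1.28 junctions in the etoposide libraries, and 8 of them had at least the 4 of Cd69, with a highest count of 10 (Bhlhe40). Cd69 thus lay inside the range of its neighbours on that chromosome.

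The BTG genes encode anti-proliferative proteins that act with the mRNA deadenylation machinery, and both had junctions. Btg2 (chr1:134074865-134079155) had 1 junction in each of etoposide replicate 1, etoposide replicate 2 and IFN with etoposide, and 0 in the other 7 libraries. With Tnfaip3 and Cd69 it was 1 of the 3 genes joined in all 3 etoposide libraries without DRB. The prey alignment was only 33 bases for Btg2 in etoposide replicate 2 and for Tnfaip3 in IFN with etoposide. The share of all genes joined in all 3 libraries was not computed, so nothing is read from this count. The Btg2 junctions lay 1535, 2835 and 531 bp into the gene, all inside the body. Btg1 (chr10:96617001-96622813) had 2 junctions in etoposide replicate 1 and 0 elsewhere, 1485 and 1943 bp after the start.

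The 3 Btg2 reads are shown because they join different points of a short gene in 3 libraries. Lower case is bait and capitals are prey with any shared bases, as above.
Btg2, etoposide replicate 1, chr1:134077620-134077659, plus strand: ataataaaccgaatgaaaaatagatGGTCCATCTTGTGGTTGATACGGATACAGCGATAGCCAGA
Btg2, etoposide replicate 2, chr1:134076288-134076320, minus strand: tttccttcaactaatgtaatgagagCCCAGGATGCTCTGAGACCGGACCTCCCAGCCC
Btg2, IFN with etoposide, chr1:134078585-134078624, minus strand: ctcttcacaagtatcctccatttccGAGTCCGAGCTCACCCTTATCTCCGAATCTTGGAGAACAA

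Among the MAP kinase phosphatases, which remove activating phosphates from the kinases that turn this programme on, Dusp2, Dusp5 and Dusp6 had junctions and Dusp1 had 0. Dusp6 (chr10:99263231-99267489) had 1 junction in each of etoposide replicate 1, IFN with etoposide and untreated replicate 2. The junctions with etoposide lay 801 and 600 bp after the start, while the untreated junction lay 3334 bp past the end, in the non-coding gene Gm34921. Dusp2 (chr2:127336159-127338377) had 2 junctions in etoposide replicate 1 and 0 elsewhere. These 2 reads had the same junction position and differed at 1 of 468 bases, and whether they are copies of 1 molecule was not tested. Dusp5 had 1 junction in etoposide replicate 2, 5694 bp into the gene, and 1 in each AsiSI library, which are described with the AsiSI site.

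The AP-1 genes, whose products pair to form the AP-1 transcription factor, were mostly empty. Jun (chr4:95049036-95052222) had 1 junction in etoposide replicate 1, 1 in IFN with etoposide and 1 in AsiSI. The first 2 lay inside this short gene, 1587 and 1865 bp after the start, and the AsiSI junction lay 858 bp before it, in the divergent non-coding gene Junos. Atf3, a stress-induced member of the wider AP-1 family, had 1 junction in etoposide replicate 1, 1417 bp before the start. Fos, Fosb, Junb and Jund had 0 in all 10 libraries.

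Of the nuclear receptors of the NR4A family, Nr4a1 (chr15:101253902-101274795) had 1 junction in each of etoposide replicate 1, IFN with etoposide and DRB, while Nr4a2 and Nr4a3 had 0 throughout. The 2 junctions with etoposide lay 214 and 356 bp after an annotated start, and the DRB junction 1433 bp after it. The DRB read matched the gene with 16 mismatches over 226 aligned bases, against 0 in both others, so its placement is less sure. Among the EGR zinc-finger factors, Egr1 had 1 junction in AsiSI, 4671 bp outside the gene and from a prey alignment of 33 bases, and Egr2 and Egr3 had 0.

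In the KLF family of zinc-finger factors, Klf2 and Klf10 had 2 junctions each and Klf4 and Klf6 had 0. Klf2 (chr8:72319062-72321654), which controls lymphocyte quiescence and trafficking, had 1 in etoposide replicate 1, 224 bp after the start, and 1 in etoposide replicate 2, 3193 bp before it. Klf10 had 1 in etoposide replicate 1 and 1 in IFN with etoposide, 961 and 550 bp outside the gene, both in the non-coding gene Gm35248. The ZFP36 proteins bind AU-rich elements and speed the decay of short-lived mRNAs. Zfp36l1 (chr12:80107760-80113013) and Zfp36l2 (chr17:84183924-84187947) each had 1 junction in both etoposide libraries and 0 elsewhere, and Zfp36 had 0. Both Zfp36l2 junctions, 1808 and 2705 bp outside the gene, lay in the non-coding gene Gm41640.

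Among the genes of survival, stress and signalling, 4 of 6 had a junction, always 1. Pim1, a survival kinase, had it in etoposide replicate 1, 739 bp after the start and inside the overlapping non-coding gene Gm26885. Gadd45b, a stress sensor, had it in etoposide replicate 2, 1665 bp after the start and from a prey alignment of 29 bases. Mcl1, an anti-apoptotic BCL2-family protein, and Sgk1, a kinase, had it in IFN with etoposide, 6486 and 573 bp after a start, the first of these 2028 bp past the end of the gene. Rhob, a small GTPase, and Plk2, a polo-like kinase, had 0. The IER genes Ier2, Ier3 and Ier5 had 0 in all libraries.

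A gene at 0 is not thereby unbroken. In etoposide replicate 1, the deepest library, the like-length genes predicted 5.29 junctions for the 39 genes off chromosome 6 together, well under 1 per gene. Gene bodies ranged from 1199 bp (Ier3) to 117720 bp (Sgk1), with a median of 5312 bp, against 17169 bp for all protein-coding genes. Short windows such as those of the IER genes can hold few junctions at this depth.

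As a set, the 39 genes off chromosome 6 held 21 of 6443 prey off chromosome 6 in etoposide replicate 1, a share of 0.326% (95% Clopper-Pearson interval 0.202 to 0.498). Etoposide replicate 2 had 8 of 2049, 0.390% (0.169 to 0.768), and IFN with etoposide 10 of 2005, 0.499% (0.239 to 0.915). The 3 intervals overlap. Scaled to 100000 prey per Mb of window (0.820 Mb in all), the density was 398 and 476 in the etoposide libraries, a mean of 437 ± 55.6 (SD, n = 2), and 608 in IFN with etoposide.

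Protein-coding genes of like length had densities of 100.2, 96.9 and 103 in the same 3 libraries. The numbers of junctions expected from them were 5.29, 1.63 and 1.70, so that observed over expected came to 3.97 (Poisson interval 2.46 to 6.06), 4.91 (2.12 to 9.68) and 5.89 (2.83 to 10.8). Each interval lies above 1, which is a description, since the genes were chosen with results of these libraries known. Limited to the 27 genes with no other protein-coding gene in the window, against genes of the same kind, the ratios were 5.61, 4.90 and 9.66. Of the libraries without etoposide, AsiSI gave 5.65 (1.17 to 16.5) from 3 junctions, 1 of them at the AsiSI site of Dusp5 described below. From 1 junction each, untreated replicate 2 gave 7.92 (0.200 to 44.1), DRB 14.9 (0.378 to 83.1) and DRB with AsiSI 1.82 (0.0462 to 10.2). The DRB with AsiSI junction also lay at the Dusp5 site, and the DRB junction was the Nr4a1 read with 16 mismatches. Ratios without these junctions were not computed. Untreated replicate 1, IFN and DRB with etoposide had 0 junctions.

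**Figure D2:**
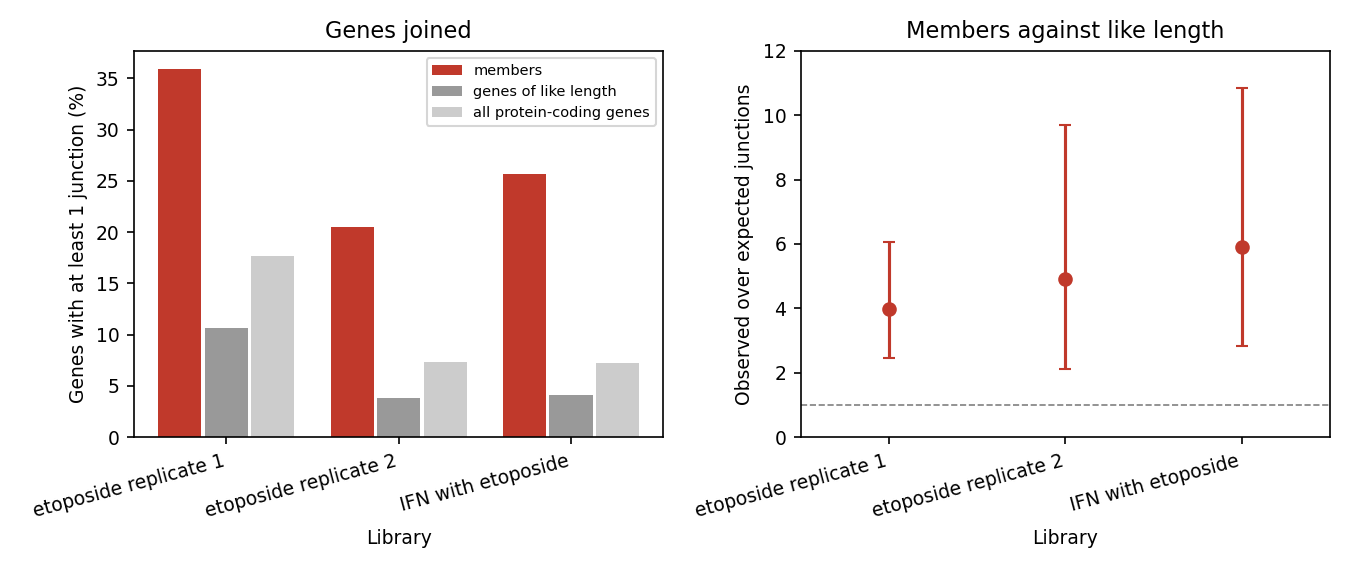
Left, percent of genes with at least 1 junction in each etoposide library without DRB, for the 39 response genes off chromosome 6, genes of like length and all protein-coding genes off chromosome 6. Right, observed over expected junctions with 95% Poisson intervals; the dashed line marks 1, and all 3 intervals lie above it.

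The junctions were spread over more than a few genes, but unevenly. Tnfaip3 alone held 7 of the 29 in the etoposide libraries, including the pair 3 bp apart. In either etoposide library, 17 of the 39 genes (43.6%) had at least 1 junction, against 21.6% of all protein-coding genes off chromosome 6 and 13.3% of those of like length. In both libraries it was 5 of 39 (12.8%; Btg2, Klf2, Tnfaip3, Zfp36l1 and Zfp36l2), against 3.4% of all and 1.13% of like-length genes. The prey alignments of Btg2 and Klf2 in etoposide replicate 2 were short, 33 and 39 bases. In IFN with etoposide it was 10 of 39 (25.6%), against 7.26% of all and 4.09% of like-length genes. Of all 40 genes, now with Cd69 on chromosome 6, 21 had a junction in at least 1 of these 3 libraries, and 11 in at least 2. The same shares of all or like-length genes were not computed, so nothing is read from these counts.

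The question the untreated libraries answer is whether these genes take a larger share of prey after etoposide. Untreated replicate 1 had 0 of 618 prey in the set, which allows a share of up to 0.485% (3 counts) or 0.595% (exact interval). Untreated replicate 2 had 1 of 247, 0.405% (0.0102 to 2.23). The mean share was 0.202% ± 0.286 (SD, n = 2) untreated and 0.358% ± 0.0456 (SD, n = 2) with etoposide, a difference of 0.156 percentage points that is smaller than the spread of the untreated libraries. By replicate number it was 0.326 and −0.0144 points. Pooled, the shares were 0.116% (0.00293 to 0.642) and 0.341% (0.229 to 0.490), whose intervals overlap, so a difference was not detectable at this depth. Without untreated replicate 1 the difference was −0.0467 points.

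**Figure D3:**
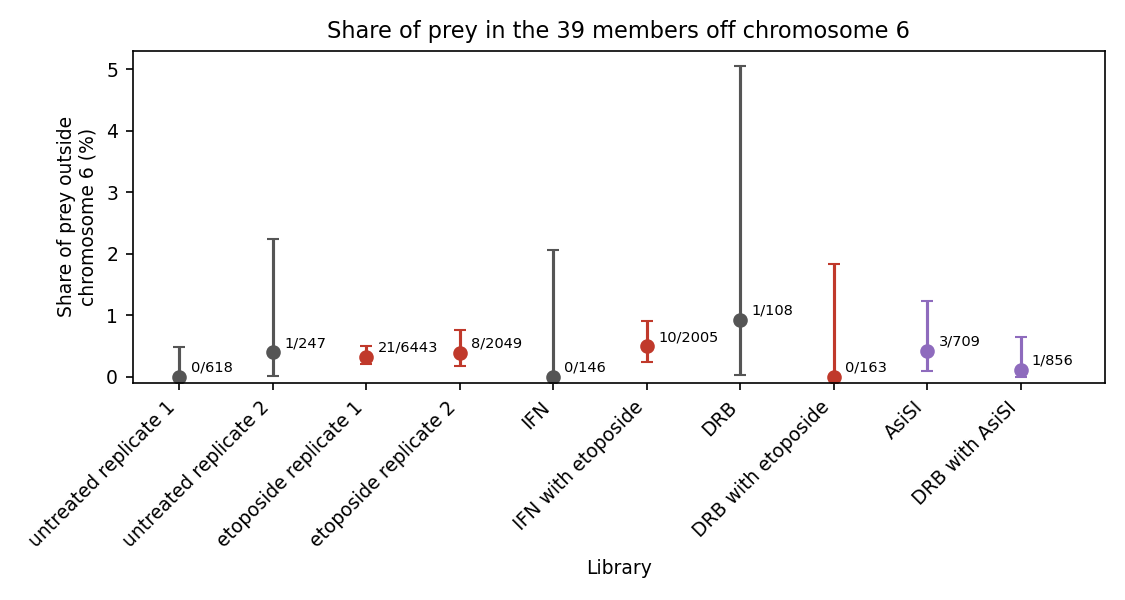
Share of prey off chromosome 6 that lay in the 39 response genes, in percent, by library, with 95% Clopper-Pearson intervals; labels give junctions over prey. Red marks libraries with etoposide, purple those with AsiSI and grey the others; every interval overlaps those of the etoposide libraries. For the 3 libraries at 0 the bar ends at the share that 3 counts would give.

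With DRB before etoposide, 0 of 163 prey lay in the set. That allows a share of up to 1.84% (3 counts) or 2.24% (exact interval), above both etoposide shares. The difference from the etoposide mean, −0.358 points, was therefore not detectable at this depth, and 1 junction between 5 and 10 kb from a gene turns it to 0.209 points when the flank is widened to 10 kb. IFN with etoposide exceeded the etoposide mean by 0.141 points, inside its own interval. The remaining libraries had 0 of 146 (IFN), 1 of 108 (DRB), 3 of 709 (AsiSI) and 1 of 856 (DRB with AsiSI). There was 1 library of each of these groups, and no test was made between them.

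Gene by gene, only Tnfaip3 reached the 5 junctions over the untreated and etoposide libraries that the fit across all genes required. In limma with voom weights its log2 change, etoposide over untreated, was −0.99 ± 0.94 (SE; adjusted p = 0.698), although its junctions were 0 and 0 untreated against 6 and 1 with etoposide. That fit called 15 of 438 genes (3.42%), all lower with etoposide, and 366 of the 438 had 0 junctions in both untreated libraries. It failed on simulated data, where it called unchanged genes and missed most changed ones, so nothing is read from it. Under 5 other forms of limma on the same table, 4 of them added after the data were seen, the log2 change of Tnfaip3 ran from −2.24 (limma adjusted p = 0.0103) to 2.04 (limma adjusted p = 0.00776). The voom fit with other library sizes gave −0.19 (all prey, limma adjusted p = 0.844) and 3.02 (junctions within 1 Mb of the bait, limma adjusted p = 0.300), so the sign also turned with the library size. Fisher's exact test on pooled junctions called 2 of 438 genes (0.457%), both lower (Foxp1 and Gtf3c4, named after their values were seen), and gave p = 1 for Tnfaip3.

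Position within the gene could be measured for 33 genes with a start in RefSeq's promoter table (GRCm38.p6). In the etoposide libraries, 14 of their 25 junctions (56.0%, Clopper-Pearson interval 34.9 to 75.6) lay within 2 kb of a start, a zone that made up 22.0% of the windows. The replicates differed: 13 of 19 (68.4%) in replicate 1 and 1 of 6 (16.7%, 0.421 to 64.1) in replicate 2. IFN with etoposide had 6 of 9 (66.7%, 29.9 to 92.5). Like-length genes, weighted to the same genes, had 35.1% of their etoposide junctions in that zone and 29.7% in IFN with etoposide. The first value lies just inside the interval of the response genes and the second just outside it, and replicate 1 alone (interval 43.4 to 87.4) lies above its like-length value of 34.2%.

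**Figure D4:**
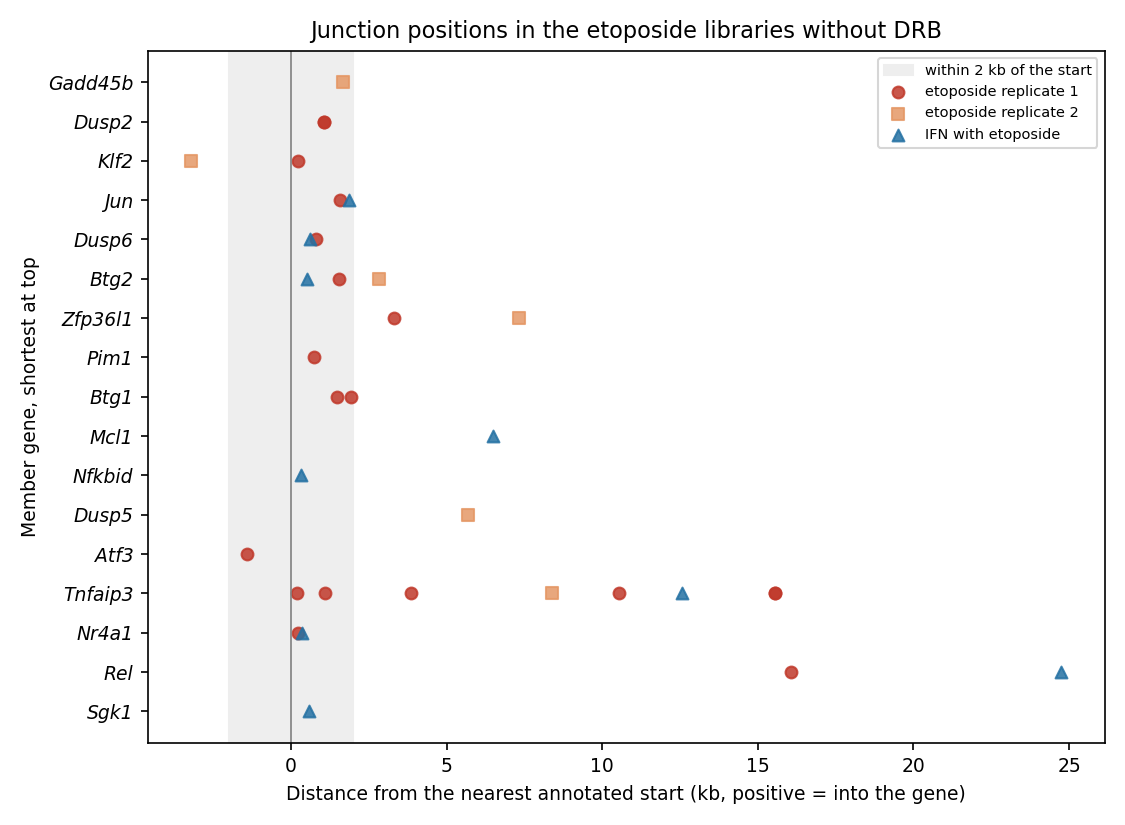
Distance of each junction from the nearest annotated start (kb, positive into the gene) for response genes with a start in the promoter table, in the 3 etoposide libraries without DRB; rows run from the shortest gene to the longest. Circles crowd the shaded zone within 2 kb of the start (13 of 19), the squares of etoposide replicate 2 do not (1 of 6), and Tnfaip3 junctions run along the whole gene.

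The junctions with etoposide in Jun and Dusp6 are printed because each lies within 2 kb of the start in both etoposide replicate 1 and IFN with etoposide. Lower case is bait and capitals are prey with any bases shared by both.
Jun, etoposide replicate 1, chr4:95050596-95050635, minus strand: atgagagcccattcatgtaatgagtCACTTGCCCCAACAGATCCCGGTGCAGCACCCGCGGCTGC
Jun, IFN with etoposide, chr4:95050318-95050357, minus strand: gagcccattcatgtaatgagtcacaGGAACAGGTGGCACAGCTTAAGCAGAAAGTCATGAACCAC
Dusp6, etoposide replicate 1, chr10:99263993-99264032, minus strand: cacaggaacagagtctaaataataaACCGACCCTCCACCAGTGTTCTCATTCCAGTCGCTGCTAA
Dusp6, IFN with etoposide, chr10:99263792-99263831, minus strand: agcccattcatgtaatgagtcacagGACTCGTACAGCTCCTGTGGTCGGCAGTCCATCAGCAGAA

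The bases shared at the joins were close in number to those of other prey. Over the 3 etoposide libraries without DRB, the bases shared by bait and prey at the junction had a median of 3 in 39 response-gene junctions and 3 in 10458 others. At least 1 shared base was found in 35 of 39 (89.7%) and in 84.2% of the others. By strand, 21 of the 39 lay on plus and 18 on minus. The libraries differed: 16 of 21 (76.2%) lay on plus in etoposide replicate 1, 3 of 8 (37.5%) in etoposide replicate 2 and 2 of 10 in IFN with etoposide, against 49.8%, 50.4% and 50.8% of other prey, and these differences were not tested.

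In the AsiSI libraries the question is where the enzyme cut. The sequence that AsiSI recognises, GCGATCGC (its own reverse complement), was searched on both strands in RefSeq promoters (250 bases before to 50 after a start), and 73 of 32851 (0.222%) held it. Of the 46 promoters of response genes searched, that of Dusp5 alone did. It is shown with the site in capitals.
Dusp5 promoter, GRCm38.p6, chr19:53528895-53528994, plus strand: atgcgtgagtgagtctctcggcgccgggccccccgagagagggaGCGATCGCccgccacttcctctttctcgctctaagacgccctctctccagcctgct

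The site lies before the first base of the Dusp5 body (chr19:53529145-53541809). AsiSI had 1 junction there, 28 bp from the cut position, and DRB with AsiSI had 1, 27 bp from it, and the 8 libraries without AsiSI had 0. The reads join neighbouring bases of the same side of the site.
Dusp5, AsiSI, chr19:53528876-53528915, minus strand: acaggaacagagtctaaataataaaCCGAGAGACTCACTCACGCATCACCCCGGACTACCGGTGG
Dusp5, DRB with AsiSI, chr19:53528877-53528916, minus strand: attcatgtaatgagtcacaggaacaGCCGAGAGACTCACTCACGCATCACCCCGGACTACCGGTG

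The Dusp5 pair was like other promoter sites. Of 62 distinct promoter sites, 18 had a junction within 100 bp in either AsiSI library, 8 of them in both, and 0 had one in the other 8 libraries. In DRB with AsiSI the bait and prey parts of the Dusp5 read are separated by 23 unaligned bases, which are left out of the sequence shown. A match is a string in the promoter, and no match in the other promoters says only that the letters are not in that window.

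A second list of 40 response genes outside the set (among them Myc, Nfkb1, Bcl6 and Socs3), also chosen with earlier results known, was counted the same way. In the etoposide libraries 20 of them had a junction, 42 in all. Off chromosome 6 it was 18 of 37 (48.6%), with 31 junctions, against 21.6% of all protein-coding genes and 15.8% of those of like length. Bhlhe40, a clock-related repressor on chromosome 6 (chr6:108660629-108666925), had 7 junctions in etoposide replicate 1, 3 in etoposide replicate 2, 4 in IFN with etoposide and 0 in the other 7 libraries. Among 58 genes of like length on chromosome 6 at least 50 Mb from the bait, with a mean of 1.62 junctions in the etoposide libraries, 1 had at least its 10 (13 junctions). Nfkb1, Birc3, Per1, Bcl6, Socs3 and Tiparp had 3 junctions each in the etoposide libraries and Id3 had 2. For the 37 off chromosome 6, observed over expected was 4.69 in etoposide replicate 1 (28 junctions) and 1.59 in etoposide replicate 2 (3 junctions). It was 3.32 in IFN with etoposide (6 junctions). AsiSI gave 3.17 and DRB with AsiSI 3.12, from 2 junctions each.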

How the data were processed

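Genomic DNA junctions came from HTGTS on the MiSeq. The authors' deposited files list 1 junction per row with its position, strand and read, per the file headers, and hold no counts or normalization; the standard pipeline of the assay is named per the labels' protocols, and bedtools, mm10 and GRCm38.p2 per the submitters' processing notes. The 10 libraries held 2044 to 13425 junctions (68433 in all); 83 off the main chromosomes were not used. Gene bodies, promoters and starts were RefSeq's (GRCm38.p6, whose main chromosomes share mm10 coordinates). The genes and the second list were chosen with earlier results of these data known, so no test was made over the set. Every listed gene is named, with its value in every library where it had at least 2 junctions.

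Counts per gene (body plus 5 kb), shares and intervals were computed in Python 3.11.15 (scipy 1.17.1). Antigen receptor loci, clusters of at least 10 receptor segments no more than 1 Mb apart, were left out of the library size of the fit, which used limma 3.58.1 in R 4.3.3 on genes with at least 5 junctions and Benjamini-Hochberg adjustment at 0.05. Tested on simulated data, that fit did not recover the changes put in. A further 4 forms of limma were then tried, after the data were seen, and none recovered them either; all are reported and none was chosen by its calls. The design as planned was kept as the main fit. Nothing in the labels says that replicates are separate cultures, so limma's p-values reflect library-to-library spread that may be technical. The labels name the untreated library of the same number as the control of each etoposide library, which does not show a shared culture or day, so the main fit has no block. Exons and introns were not analysed here.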

Additional observations from a re-analysis of the deposited data

How the results depend on the processing

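The count of genes called for etoposide against untreated, 15 in the voom fit, depended on nearly every choice. It was 74 with at least 3 junctions, 0 with at least 10, 4677 with no filter and 367 without voom weights. Library sizes of all prey or of junctions near the bait gave 0, and the replicate block gave 25. All of these calls except 4 without a filter were lower with etoposide. The deviations of same-numbered libraries correlated at 0.095 over 438 genes. That value cannot show whether they are paired, since 366 of the 438 had 0 junctions in both untreated libraries. The limma forms added after the data were seen called 289 and 282 (added count of 0.5, trend and vooma) and 273 and 207 (added count of 2), almost all higher. These forms and the planned fit failed on simulated data, and the direction of the calls changed between them. Fisher's exact test called 2 (11 at an unadjusted p below 0.05). Leaving out a replicate gave 0 to 17. Without a filter, 16 of 18 response genes fitted were called lower from 1 or 2 junctions, against 4673 of all 5416 genes fitted. Nothing is read from that.

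The density in etoposide, 437, was 573 with no flank, 334 with 10 kb (the window grows), 302 over all chromosomes and 372 with prey alignments of at least 40 bases (added after the data were seen), and 398 to 476 without a replicate. Observed over expected, 4.44, was 3.69 with 10 kb, 3.73 with prey of at least 40 bases, 6.11 against all lengths, 5.26 for genes alone in their window, and 3.97 to 4.91 without a replicate. Counting junctions within 10 bp once (added after the data were seen) gave 4.38.

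Per junction near the bait, the differences were 0.967 points (etoposide minus untreated), −0.976 (DRB with etoposide) and −0.665 (IFN with etoposide, where the sign turned). The response genes held 21 junctions against 1198 near the bait in etoposide replicate 1. The counts were 8 against 4013 in etoposide replicate 2 and 10 against 3216 in IFN with etoposide. Why the near-bait counts differ was not tested. Without a replicate, etoposide minus untreated ran from −0.0467 to 0.358, DRB with etoposide minus etoposide from −0.390 to −0.326 and IFN with etoposide minus etoposide from 0.108 to 0.173. The share within 2 kb of a start ran from 16.7% to 68.4%. The remaining 47 of 75 comparisons were counted as unchanged, within the error of the main value or within 1.5 times a count. The share within 1 kb of a start, 20.0%, was counted among these 47. It lies below the interval of the main value for 2 kb (34.9 to 75.6). Among the 47 the sign turned for etoposide minus untreated without untreated replicate 1 (above). It also turned for DRB with etoposide minus etoposide with a 10-kb flank (0.209 points). Depth limits most the libraries with few prey.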
